A study of Mus musculus with 8 samples.

Results

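The aldo-keto reductase Akr1c18 and its paralogs were followed in enamel organs of first molars from C57BL/6 wt mouse pups at P5 (secretory stage) and at P12 (maturation stage). Akr1c18 was chosen by its rise at P12 in these data, and the paralogs Akr1c12, Akr1c13, Akr1c14, Akr1c19, Akr1b3, Akr1b8 and Akr1a1 by family name. These are 8 of the 54532 genes counted. Each library was a pool of enamel organs from 5 pups that received no treatment, with n = 4 pools at each age, numbered 1, 3, 4 and 5 at P5 and 1 to 4 at P12. RNA was captured by its poly-A tail, and the deposited values are whole-number read counts per gene. The question was how each family member differed between the secretory and the maturation stage.

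Aldo-keto reductases are barrel-shaped enzymes that use NADPH to reduce aldehyde and ketone groups to alcohols, or run the reaction in reverse. The Akr1c enzymes act mainly on steroids, and Akr1c18 is best known in the ovary, where it turns progesterone into a less active hydroxylated form at the end of pregnancy. The Akr1b and Akr1a enzymes act mainly on sugars and small aldehydes.

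Total counts were 16963323, 19251202, 16574548 and 20262601 in P5 replicates 1, 3, 4 and 5, and 22013456, 19520437, 18036016 and 17588152 in P12 replicates 1 to 4. A floor of 3 counts corresponded to between 0.136 and 0.181 CPM, for counting error only. Marker genes set some libraries apart. The summed normalized count of 6 maturation ameloblast markers was 44417, 36929, 37942 and 12921 at P5, so that replicate 5 was the lowest, and 361973, 447991, 465839 and 494412 at P12. The summed count of 12 oral mucosa markers was 58408, 69903, 47110 and 14052 at P12, so that replicate 4 was the lowest, against 1008 to 1847 at P5. Normalized counts are counts divided by the TMM effective library size and scaled to the mean size of the 8 libraries. Means are given ± SD over n = 4 pools unless another n is stated.

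Akr1c18 (ENSMUSG00000021214) lies at chr13:4132615-4150654 on the reverse strand, within a cluster of 9 Akr1 genes that spans 560 kb of GRCm38. Its coding sequence was 76.42% identical to that of Akr1c14, 75.31% to Akr1c19, 74.25% to Akr1c12 and 74.12% to Akr1c13, whereas identity with Akr1b3, Akr1b8 and Akr1a1 was between 55.18% and 57.72%. Akr1c12 and Akr1c13 were 96.18% identical to each other. The longest run that Akr1c18 shared with another member was 48 bases, with Akr1c14. The 60 coding bases around that run (535 to 594 from the start codon), which cross the junction of exons 5 and 6 in Akr1c18, are shown because among the members they hold the longest stretch that Akr1c18 shares. In the GENCODE M21 transcripts the Akr1c18 stretch runs over chr13:4137220-4142162 on the reverse strand with an intron between its parts, and capitals mark bases that differ from Akr1c18.
Akr1c18: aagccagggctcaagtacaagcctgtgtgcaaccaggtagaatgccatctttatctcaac
Akr1c14: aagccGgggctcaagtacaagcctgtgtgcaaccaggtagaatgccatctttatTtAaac
Akr1c19: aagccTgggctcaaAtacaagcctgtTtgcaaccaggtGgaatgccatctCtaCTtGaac
Akr1c13: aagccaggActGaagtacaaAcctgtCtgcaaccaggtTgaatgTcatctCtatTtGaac
Akr1c14 differed from Akr1c18 at 3 of the 60 bases, Akr1c19 at 8, and Akr1c13 and Akr1c12, which share these bases, at 9. Even here a read longer than 48 bases carried a difference between Akr1c18 and each of these members. Of all 50-base windows in Akr1c18 transcripts, 0.581% also occurred in another gene (Akr1cl), and 0 of its 100-base windows did. The corresponding share of 50-base windows was 28.6% in Akr1c12 and 24.2% in Akr1c13, each with the other, so that the counts of this pair are uncertain. It was 5.80% in Akr1c14, all with the pseudogene Gm18857, and 4.14% in Akr1c19. No exonic base of Akr1c18 lay in an exon of another gene, but 7.22% of those of Akr1c14 lay in Gm18857 and 4.94% of those of Akr1c19 in Marcksl1-ps4, both on the same strand.

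Akr1c18 was nearly absent at P5 and abundant at P12. Its read counts were 3, 3, 5 and 9 in P5 replicates 1, 3, 4 and 5, and 6183, 6188, 5552 and 7184 in P12 replicates 1 to 4. Normalized, the P5 values were 3.86, 3.35, 6.59 and 9.53, and the P12 values 4533, 5221, 5145 and 7213. The ages did not overlap. At P12 the highest value was in replicate 4, which stood apart on markers, and the order of the P5 libraries rests on too few reads to be told apart from counting error. The mean was 5.83 ± 2.84 at P5 and 5528 ± 1165 at P12. Over the summed counts, 20 at P5 and 25107 at P12, the ratio after scaling was 916, with a 95% interval of 593 to 1501 for counting error. The fitted log2 fold change was 9.84 (SE 0.24), a description only, since Akr1c18 was chosen from this contrast. The SE was derived from the F value of the test. Here it is smaller than the counting error of 20 P5 reads alone, so it understates the uncertainty. With so few P5 counts the log2 fold change depends on the prior count, and a prior count of 2 gave 9.45. Fewer cells that express a gene and less RNA per cell cannot be told apart in bulk libraries.

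**Figure D1:**
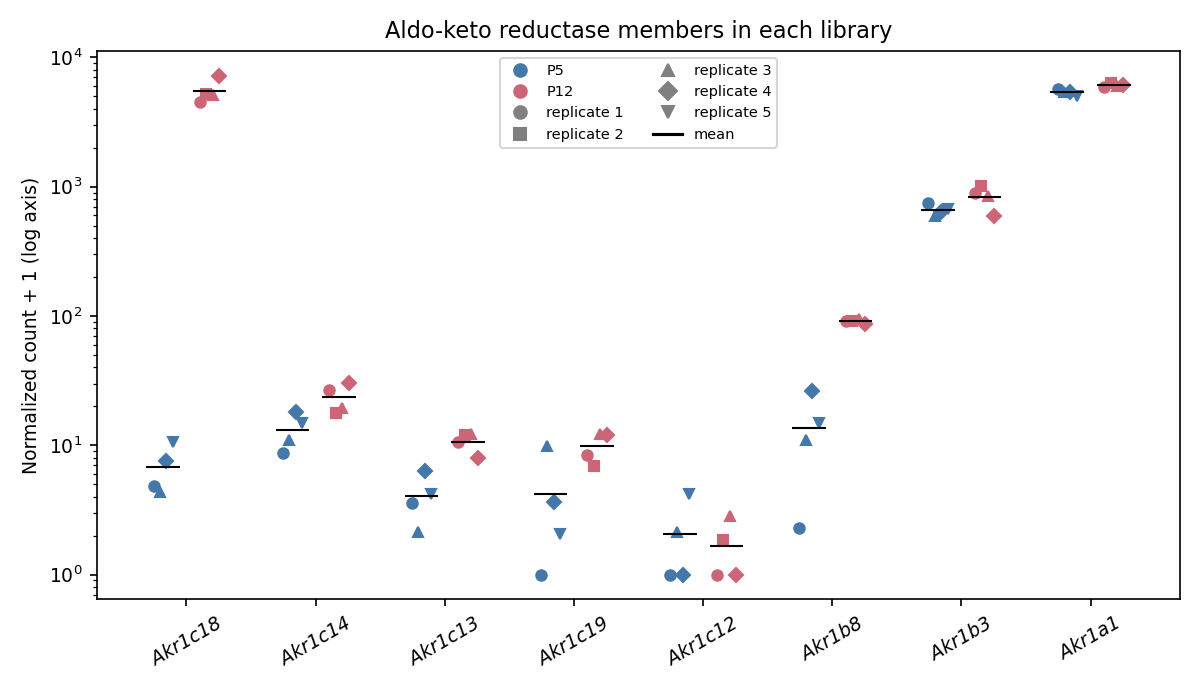
Normalized count plus 1 (log axis) of the 8 members in each of 4 P5 (blue) and 4 P12 (red) libraries, with a symbol for each replicate and a bar at the mean. Akr1c18 moves from 5.83 to 5528, Akr1b8 from 12.5 to 90.2, and the other members shift far less or lie near 0.

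Among the 11345 tested genes with a mean normalized count of at least 100, 0 had a larger log2 fold change than Akr1c18. Slc6a14 (8.69) and Krt6b (8.28) came next. Without that minimum, Tmprss11g was larger at 10.01, but it had 0 counts in all P5 libraries and a P12 mean of 128. By mean normalized count Akr1c18 ranked 356 of 16440 tested genes at P12 and 16268 at P5, and per kilobase of gene length it ranked 97 and 15367. Its P12 libraries varied more than those of most genes at this level. The coefficient of variation was 21.1%, compared with a median of 8.07% over 882 genes within 2 times its level, 87.5% of which were at or below Akr1c18. P12 replicate 4 held most of that spread: the other 3 P12 libraries averaged 4966 ± 377 (SD, n = 3), a coefficient of variation of 7.59%. Without P12 replicate 4 the log2 fold change was 9.68, and without P5 replicate 5 it was 10.21.

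At P12 the reads of the Akr1c genes were almost all Akr1c18 reads. Of the counts summed over 8 Akr1c genes, Akr1c18 took 27.3%, 13.04%, 20.8% and 25.7% in the P5 libraries, which held 11, 23, 24 and 35 such counts, and 99.0%, 99.3%, 99.1% and 99.3% in the P12 libraries. Of the counts summed over 16 genes with an Akr1 symbol, its share was 38.2%, 39.6%, 40.7% and 49.4% in P12 replicates 1 to 4, and 0.0910% on average at P5. The P12 share among all Akr1 genes was highest in replicate 4.

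Of the 8 members, 5 passed the filter on low counts (Akr1c18, Akr1c14, Akr1b8, Akr1b3 and Akr1a1). The filter needs 4 libraries above its minimum. Akr1c18 had 4 at P12 and 0 at P5, so that its test depended on its P12 level alone, and Akr1c14 and Akr1b8 had 4 at P12 and 2 at P5. At an adjusted p under 0.05 in edgeR's quasi-likelihood test, 4 of these 5 were higher at P12, and nothing is read from that count, because over all 16440 genes 28.8% were higher and 28.4% lower. Apart from Akr1c18, whose rise was the reason for its choice, 2 of the other 4 (Akr1b8 and Akr1a1) had every P12 library above every P5 library, which was so for 26.0% of all genes tested. The p-values measure the spread between pools, and the 5 pups within a pool are not separated.

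The neighbors of Akr1c18 in the cluster stayed low at both ages. Akr1c14 (ENSMUSG00000033715, chr13:4049011-4090688, forward strand), whose start lies at -101.6 kb from that of Akr1c18, reduces the products of steroid reductases such as dihydrotestosterone. Its normalized counts were 7.71, 10.1, 17.1 and 13.8 in the P5 libraries, and 25.7, 16.9, 18.5 and 29.1 in the P12 libraries, from 6 to 13 reads at P5 and 20 to 35 at P12. The ages overlapped, since P12 replicate 2 lay below P5 replicate 4. The mean was 12.2 ± 4.14 at P5 and 22.5 ± 5.81 at P12, and the log2 fold change was 0.88 (SE 0.33, edgeR adjusted p = 0.039). The call was lost without P5 replicate 1, 3 or 5, at log2 fold changes of 0.72, 0.79 and 0.95 (edgeR adjusted p = 0.11, 0.1 and 0.06), and without P12 replicate 1 or 4, at 0.80 and 0.74 (0.095 and 0.096). DESeq2 gave an adjusted p of 0.057, and over all alternatives it lay between 0.0052 and 0.11.

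Akr1c13, Akr1c19 and Akr1c12 did not pass the filter. Akr1c13 (chr13:4191150-4205596, forward strand) had 2, 1, 4 and 3 reads at P5 and 13, 13, 12 and 7 at P12, so that the P12 libraries lay above the P5 libraries. The ratio of its summed counts after scaling was 3.29, with a 95% counting interval of 1.63 to 7.31. Akr1c19 (chr13:4228700-4252843, forward strand) had 0, 8, 2 and 1 reads at P5 and 10, 7, 12 and 11 at P12, with overlap through P5 replicate 3. Its ratio was 2.65 (95% counting interval 1.34 to 5.74), which became 7.15 without P5 replicate 3. Akr1c12 (chr13:4268176-4279433, reverse strand) had 0, 1, 0 and 3 reads at P5 and 0, 1, 2 and 0 at P12, at the floor in every library, and no change was detectable at this depth. When edgeR was run without the filter, the adjusted p was 0.037 for Akr1c13, 0.14 for Akr1c19 and 0.73 for Akr1c12, and reads that Akr1c12 and Akr1c13 share may have been placed in either.

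**Figure D2:**
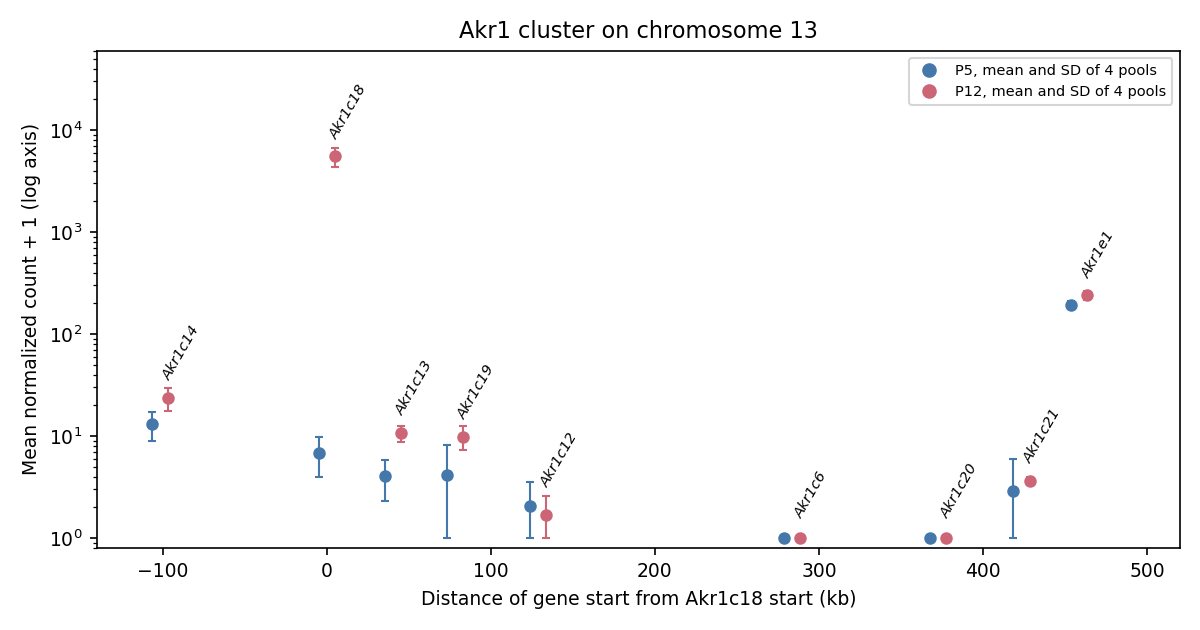
Mean normalized count plus 1 (log axis) with the SD of 4 pools at P5 (blue) and P12 (red), for the 9 Akr1 genes of the chromosome 13 cluster, against the distance of each gene start from that of Akr1c18 in kb. Akr1c18 reaches 5528 at P12 between neighbors whose P12 means are 22.5 (Akr1c14) or lower, and Akr1e1, 458.5 kb away, is at 239.

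Farther along the same cluster, Akr1c6 and Akr1c20, with starts 283.7 and 372.7 kb from that of Akr1c18, had 0 counts in every library. Akr1c21 had between 0 and 6 reads in a library. Akr1e1, which reduces a sugar-derived ketone and lies at the far end, was the only other gene of the cluster besides Akr1c18 and Akr1c14 that passed the filter. Its normalized count was 193 ± 16.5 at P5 and 239 ± 24.9 at P12, a log2 fold change of 0.31 (edgeR adjusted p = 0.035). The edgeR adjusted p was 0.11, 0.069 and 0.057 without P5 replicates 3, 4 and 5, and 0.084 without either P12 replicate 2 or P12 replicate 4. Over all alternatives the log2 fold change of Akr1e1 lay between 0.245 and 0.678.

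Promoters are shown for the pair of members with the largest log2 fold changes, Akr1c18 and Akr1b8. The RefSeq table for GRCm38.p6 matched 7 of the 8 members. The 250 bases before the start lie at chr13:4150647-4150896 on the reverse strand for Akr1c18 and at chr6:34353896-34354145 on the forward strand for Akr1b8, and their last 8 and 27 bases are exonic in GENCODE M21. Capitals mark a match to a motif.
Akr1c18: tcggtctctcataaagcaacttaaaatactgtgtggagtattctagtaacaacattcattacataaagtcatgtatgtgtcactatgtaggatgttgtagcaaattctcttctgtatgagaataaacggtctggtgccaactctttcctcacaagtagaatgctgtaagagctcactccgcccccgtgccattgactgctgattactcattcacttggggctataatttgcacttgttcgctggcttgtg
Akr1b8: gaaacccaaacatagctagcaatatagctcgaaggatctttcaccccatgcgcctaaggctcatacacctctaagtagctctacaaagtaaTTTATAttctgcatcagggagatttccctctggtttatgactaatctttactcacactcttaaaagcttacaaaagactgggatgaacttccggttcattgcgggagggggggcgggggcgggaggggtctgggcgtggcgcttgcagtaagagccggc
The 6 motifs searched on both strands were the TATA motif TATAAA, the CCAAT box, the AP-1 motif TGANTCA, the antioxidant response element core TGACNNNGC, the E-box CACGTG and the steroid receptor motif AGAACA, which is a part of the full receptor site. The Akr1c18 window held none of these letters. Akr1b8 held TATAAA on the opposite strand, 159 bases before the start, as did 12.4% of 32851 promoters on either strand. CCAAT was in the windows of Akr1c14 and Akr1c19 and in 33.8% of promoters. The AP-1 motif (6.75% of promoters), the antioxidant core (10.2%), the E-box (6.02%) and the receptor motif (16.1%) were in 0 of the 7 members. Identity over the 250 bases was 92.52% between Akr1c12 and Akr1c13, and between 47.55% and 52.06% for Akr1c18 with the other Akr1c members.

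Akr1b8 (ENSMUSG00000029762, chr6:34354119-34368463, forward strand) is an aldose reductase-like enzyme that reduces small aldehydes. It had 1, 9, 19 and 13 reads in the P5 libraries, against 124, 108, 101 and 85 in the P12 libraries. Normalized, the P5 values were 1.29, 10.1, 25.0 and 13.8, and the P12 values 90.9, 91.1, 93.6 and 85.3. The P12 libraries were close to one another and above all P5 libraries, among which replicate 1 was the lowest and replicate 4 the highest. The mean rose from 12.5 ± 9.84 to 90.2 ± 3.49, a log2 fold change of 2.84 (SE 0.41, edgeR adjusted p = 0.00014). It was called in each of the 18 alternative fits that tested it, with a log2 fold change between 2.48 and 3.36, and was not tested where at least 10 counts were required in every library. Of the 16440 tested genes, 319 had a larger log2 fold change than Akr1b8.

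Akr1b3 (ENSMUSG00000001642, chr6:34302434-34317478, reverse strand), aldose reductase, turns glucose into sorbitol at the head of the polyol pathway and can also form prostaglandin F. The P5 libraries had normalized counts of 740, 587, 631 and 671, the P12 libraries of 890, 1016, 853 and 593. The ages overlapped, because P12 replicate 4 was the lowest of its age and fell within the P5 range. The mean was 657 ± 65.1 at P5 and 838 ± 177 at P12, and the log2 fold change of 0.35 (SE 0.14) missed the threshold (edgeR adjusted p = 0.052). Without P12 replicate 4 the log2 fold change was 0.48 (edgeR adjusted p = 0.0005), without P5 replicate 1 it was 0.41 (0.048), and DESeq2 on all 8 libraries gave an adjusted p of 0.04. Over all alternatives the adjusted p of Akr1b3 lay between 0.00038 and 0.2. Of its 50-base transcript windows, 13.6% occurred in other genes.

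Akr1a1 (ENSMUSG00000028692, chr4:116636510-116651680, reverse strand), aldehyde reductase, converts glucuronate to gulonate, a step of ascorbate synthesis in mice. The P5 libraries had normalized counts of 5692, 5348, 5432 and 4979, the P12 libraries of 5870, 6301, 5996 and 6089, so that the ages did not overlap but lay close together. The mean rose from 5363 ± 295 to 6064 ± 182, a log2 fold change of 0.18 (SE 0.06, edgeR adjusted p = 0.033). The call was lost without P5 replicate 3, 4 or 5, at log2 fold changes of 0.17, 0.18 and 0.14 (edgeR adjusted p = 0.085, 0.07 and 0.082), and without P12 replicate 2 or 3, at 0.16 and 0.19 (0.082 and 0.057). As the fold changes stayed close to 0.18, this does not show that 1 library carried the change. Over all alternatives the adjusted p of Akr1a1 lay between 1.7e-05 and 0.25. Scaling by total count, which raised the median change over all genes (log2) to 0.38 from 0.01 and the share of calls that were higher from 50.3% to 79.2%, gave Akr1a1 0.55, or 0.17 above that median.

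**Figure D3:**
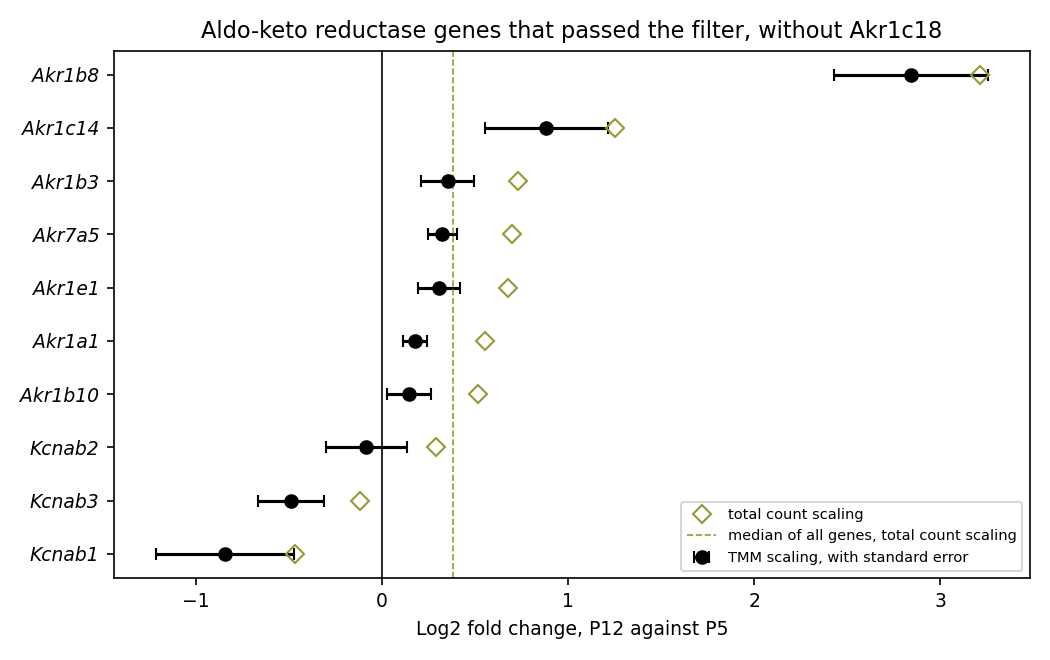
Log2 fold change at P12 against P5 with its standard error (black, TMM scaling) and under total count scaling (open diamonds, dashed line at 0.38 for the all-gene median in that fit) for tested aldo-keto reductase genes other than Akr1c18. Akr1b8 stands at 2.84 and Akr1c14 at 0.88, the others lie between -0.85 and 0.35, and Kcnab2 changes sign with the scaling (-0.09 and 0.29).

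Levels of the members were compared as normalized counts per kilobase of the gene length in the deposited table. At P12 the order was Akr1c18 at 4580 ± 965, Akr1a1 at 2205 ± 66.2, Akr1b3 at 99.9 ± 21.2, Akr1b8 at 60.2 ± 2.33, Akr1c14 at 6.96 ± 1.79, Akr1c13 at 6.74 ± 1.32, Akr1c19 at 1.502 ± 0.448 and Akr1c12 at 0.535 ± 0.699. Akr1c14 and Akr1c13 did not differ beyond their spread, nor did Akr1c19 and Akr1c12. At P5 the order was Akr1a1 at 1950 ± 107, Akr1b3 at 78.4 ± 7.77, Akr1b8 at 8.36 ± 6.57, Akr1c18 at 4.83 ± 2.36 and Akr1c14 at 3.76 ± 1.28, and the last 3 of these overlapped. Akr1c13 (2.12), Akr1c12 (0.85) and Akr1c19 (0.54) came last. The first place at P12 depended on the length used. Per kilobase of the transcript with the longest coding sequence, Akr1c18 was at 4607 ± 971 (range 3778 to 6011) and Akr1a1 at 4271 ± 128 (range 4134 to 4438), which overlapped. Without division by length Akr1a1 stood first, but the libraries overlapped there too (4533 to 7213 for Akr1c18, 5870 to 6301 for Akr1a1). P12 replicate 4 was the only P12 library with Akr1c18 above Akr1a1 (7213 against 6089). The distance from Akr1b3 to Akr1b8 also depended on the length used. Per kilobase of the transcript with the longest coding sequence they were at 604 ± 128 and 66.5 ± 2.57.

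The family has 12 other members in the table, of which 6 passed the filter. Akr7a5, which reduces aldehydes that arise from toxins and amino acids, rose from 340 ± 23.2 to 425 ± 20.4, a log2 fold change of 0.32 (edgeR adjusted p = 0.0043), and Akr1e1 was called as given above. Kcnab3, a channel subunit with the aldo-keto reductase fold, had 98.7 ± 12.9 at P5 and 70.6 ± 11.7 at P12, a log2 fold change of -0.49 (edgeR adjusted p = 0.035). Its edgeR adjusted p was 0.056, 0.057 and 0.095 without P5 replicates 1, 3 and 5, and 0.065 and 0.092 without P12 replicates 1 and 2. Over all alternatives the log2 fold change of Kcnab3 lay between -0.57 and -0.12, with -0.12 under total count scaling. Akr1b10 (0.14, edgeR adjusted p = 0.32), Kcnab1 (-0.85, 0.072) and Kcnab2 (-0.09, 0.76) were not called, and Kcnab1 passed without P12 replicate 2 (0.036). The median log2 fold change of the 6 genes was 0.03. Akr1d1, a reductase of bile acid synthesis, had 0 counts in every library.

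Akr1c18 was set beside the marker lists in each library, and the part of any cell type in its level was not tested. As a percentage of the summed maturation marker count, Akr1c18 was at 0.0087, 0.0091, 0.0174 and 0.0737 in P5 replicates 1, 3, 4 and 5, and at 1.25, 1.17, 1.10 and 1.46 in P12 replicates 1 to 4. These markers were all called higher (6 of 6, Odam the most abundant over all 8 libraries). Akr1c18 was chosen by the size of its rise, so nothing is read from its larger rise. Among the P12 libraries, replicate 4 had the highest Akr1c18 count, the highest count for 5 of 6 maturation markers and 4 of 4 secretory markers, and the lowest for 12 of 12 oral mucosa and 5 of 5 osteoclast markers. Summed secretory markers at P12 were 237041, 264278, 433633 and 621683. Akr1b3 was also lowest in P12 replicate 4, whereas Akr1b8 and Akr1a1 differed little among P12 libraries.

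**Figure D4:**
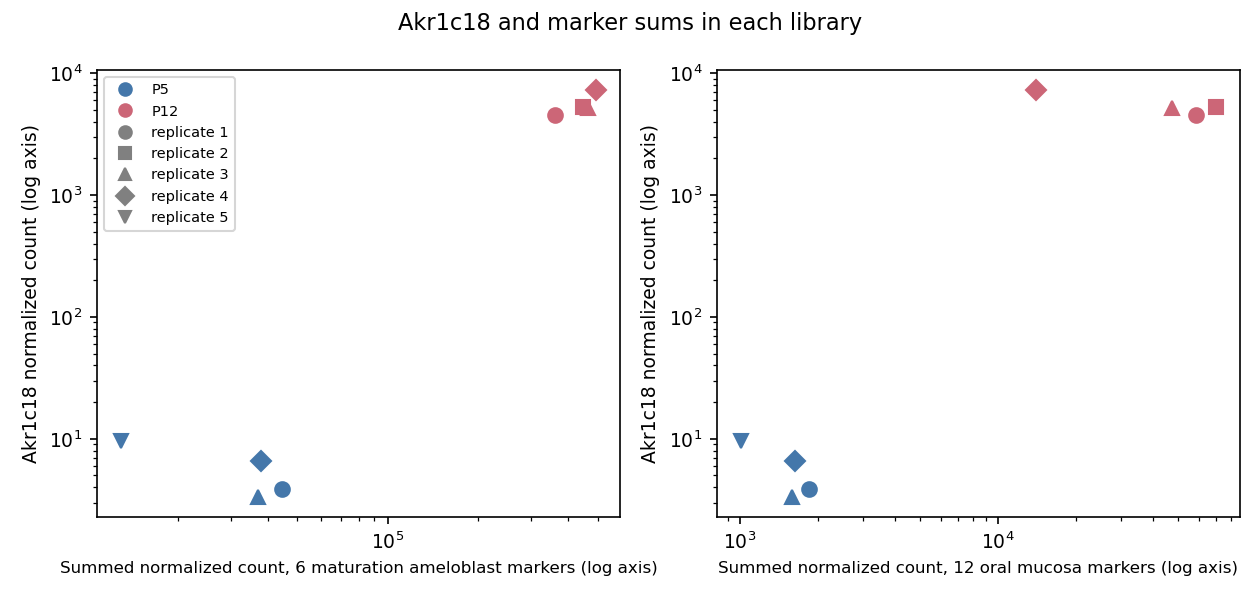
Normalized count of Akr1c18 (log axis) against the summed normalized count of 6 maturation ameloblast markers (left, log axis) and of 12 oral mucosa markers (right, log axis) in the 4 P5 (blue) and 4 P12 (red) libraries. P12 replicate 4 (diamond) has the highest Akr1c18 count, 7213, beside the lowest P12 mucosa sum, 14052.

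The other marker lists moved as follows between P5 and P12. With the most abundant gene of each list over all 8 libraries in brackets, secretory ameloblast markers were lower in 4 of 4 (Amelx), and markers of oral mucosa were higher in 10 of 10 tested (Krt6a), of osteoclasts in 4 of 4 tested (Ctsk), of endothelium in 5 of 5 (Kdr), of macrophages and leukocytes in 4 of 6 (Lyz2) and of Schwann cells in 3 of 4 (Mbp). The counts of tested genes depend partly on the filter. The osteoclast markers Ocstamp (1, 5, 1 and 8 reads at P5) and Dcstamp (6, 6, 5 and 5) passed it through their P12 level, as did the mucosa marker Krt24 (6, 8, 1 and 3). The mucosa markers Krt6b (28, 27, 28 and 7) and Krt76 (19, 19, 17 and 5) also needed P12 libraries to pass the filter. The osteoclast marker Calcr was not tested and went the other way (11.1 ± 3.70 at P5, 4.48 ± 3.27 at P12). Of 5 T cell markers only Cd4 was tested, and it was higher. Of 6 mesenchyme and odontoblast markers 2 were higher (Col3a1, from 4414 ± 235 to 54909 ± 25880, and Postn, from 1216 ± 108 to 18750 ± 7801) and 2 lower (the most abundant, Col1a1, was not called), of 5 erythroid markers 2 were lower (the most abundant, Hbb-bs, was not called), and of 5 muscle markers 4 were lower and 1, the most abundant over all 8 libraries, Myh4, was higher. The most abundant gene could differ by age. At P5 Acta1, which was lower at P12, stood above Myh4 (457 against 173). At P12 Ambn stood above Amelx (333611 against 50552). Of 5 tested mast cell and basophil markers 1 was higher and 1, the most abundant, Kit, was lower, with Fcer1a at 0, and the 1 salivary gland marker tested (Amy1) was not called, with Smr3a at 0. The same 28.8% and 28.4% of all genes stand behind these counts. Under total count scaling several of them changed. Mesenchyme and odontoblast markers then had 3 higher and 0 lower, and erythroid markers 1 and 0. Mast cell and basophil markers had 2 and 0, muscle markers 1 and 2, and macrophage and leukocyte markers 6 and 0.

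Among 11344 other genes with a mean normalized count of at least 100, those whose pattern was most like that of Akr1c18 over the 8 libraries were B4galt1, Tmbim1, Slc6a8, Clec2d and Gna15, with a Pearson r between 0.997 and 0.998 for log2 of the normalized count plus 1. The points fall into 2 ages, so r mostly reflects that separation, and 2025 of these genes had r above 0.9. Among the members that met this minimum, r with Akr1c18 was 0.82 for Akr1a1 and 0.57 for Akr1b3.

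Lists of genes around the reactions of the members were counted in the same fit, against 28.8% higher, 28.4% lower and a median log2 fold change of 0.01 over all genes. Among 15 tested genes of progesterone synthesis and reduction, 8 were higher and 3 lower (median 0.36). Among the 8, Sult2b1 (11, 2, 8 and 23 reads at P5) needed its P12 libraries to pass the filter. Among the 3, Hsd11b2 (8, 10, 3 and 16 reads at P12) needed its P5 libraries. Tspo rose from 337 ± 37.6 to 1282 ± 118, and Hsd17b7 and Hsd17b11 had log2 fold changes of 1.17 and 1.01 (edgeR adjusted p = 0.00018 and 1.7e-05). The enzymes that make progesterone were scarce: Cyp11a1, which cleaves the cholesterol side chain, had 2, 11, 6 and 14 reads at P5 and 10, 11, 6 and 2 at P12, and Hsd3b1 and Hsd3b2 had 0 in every library. Hsd17b2, which oxidizes the product of Akr1c18 back to progesterone, had 7, 1, 1 and 6 reads at P5 and 51, 33, 22 and 5 at P12, lowest in P12 replicate 4, and was not tested. Star (-0.24, edgeR adjusted p = 0.25) and Srd5a1 (-0.16, 0.36) were not called, and Srd5a1 passed without P12 replicate 4 (0.02).

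Among 11 tested steroid receptors, 6 were higher and 2 lower (median log2 fold change 0.37). Among the 6, Esr1 (8, 11, 20 and 6 reads at P5) and Gper1 (8, 5, 10 and 9) needed their P12 libraries to pass the filter. Among the 2, Paqr5 (43, 85, 38 and 9 reads at P12) needed its P5 libraries. The progesterone receptor gene Pgr had normalized counts of 36.9 to 76.2 at P5 and 45.4 to 71.1 at P12 and was not called (log2 fold change 0.11, edgeR adjusted p = 0.72). The log2 fold change was 0.86 for the glucocorticoid receptor gene Nr3c1 and 0.37 for the membrane progesterone receptor component Pgrmc1, while Pgrmc2 fell by 0.53. Of 26 tested prostaglandin genes, 15 were higher and 0 lower in edgeR (median 0.72), with 18 higher and 0 lower at an unadjusted p under 0.05 and 16 higher and 0 lower in DESeq2. The count depends partly on the filter. Among the 15, Ptger2 (3, 7, 6 and 4 reads at P5) and Ptgir (6, 6, 3 and 4) passed it through their P12 level. Ptgs2 (7, 13, 9 and 8), Ptger3 (9, 10, 10 and 18) and Tbxa2r (10, 9, 18 and 15) also needed P12 libraries to pass the filter. Ptgfr, the receptor for prostaglandin F, rose from 71.5 ± 18.3 to 701 ± 174, with log2 fold changes of 2.29 for the prostaglandin E synthase Ptges and 1.47 for the cyclooxygenase Ptgs1. These 3 genes were lowest among P12 libraries in replicate 4, as were the mucosa markers and the mesenchyme markers Col3a1 and Postn, and the part of those cell types in the rise was not tested. Without P12 replicate 4, 17 prostaglandin genes were higher and 0 lower.

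Around Akr1b3, 3 of 7 tested polyol and osmolyte genes were higher (Hspa4l, Aqp1 and Slc6a6) and 2 lower (Khk and Nfat5), with a median log2 fold change of 0.37. Around Akr1a1, 2 of 5 tested ascorbate genes were higher (Slc23a2, a vitamin C transporter, at 1.34, or 0.95 without P12 replicate 4, where it was highest, and Ugp2 at 0.63) and Dcxr was lower (-0.40), with a median of 0.21. Of 20 tested aldehyde and alcohol dehydrogenases, which oxidize what reductases reduce, 9 were higher and 3 lower (median 0.22). Among the 9, Aldh3a1 (4, 11, 3 and 7 reads at P5) needed its P12 libraries to pass the filter. Aldh3a1 had normalized counts of 5.14, 12.3, 3.95 and 7.41 at P5 and 246, 361, 153 and 29.1 at P12, lowest in P12 replicate 4 as the mucosa markers were, and Aldh18a1, of proline synthesis, fell by 2.19. Of 21 tested retinoid genes, 10 were higher and 5 lower (median 0.19): on the log2 scale Cyp26b1 rose by 2.72 and Cyp26a1 fell by 3.72, both of which break down retinoic acid. Among the 10, Lrat (5, 3, 3 and 18 reads at P5) needed its P12 libraries to pass the filter. Among the 5, Cyp26c1 (4, 2, 7 and 8 reads at P12) and Rxrg (6, 6, 7 and 8) needed their P5 libraries.

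For the NADPH that reductases use, 9 of 14 tested genes were higher and 1 lower (median log2 fold change 0.35). Idh1 rose from 1070 ± 71.3 to 4330 ± 328, and Me1 and G6pdx had log2 fold changes of 0.88 and 0.68. Of 17 genes in the NRF2 list, a factor of the oxidant response, 9 were higher and 3 lower (median 0.87), with Gsta4 at 4.48, Nqo1 at 1.90 and Srxn1 at 1.81, and Gclm fell by 2.02. The count and median depend partly on the filter. Among the 9, Gsta3 (7, 8, 8 and 0 reads at P5) and Osgin1 (10, 5, 15 and 5) needed their P12 libraries to pass it. The falls of Khk, Nfat5, Pgrmc2, Dcxr, Me2, Aldh5a1 and Blvrb were not called under total count scaling. That scaling raised the number of genes called higher in each of the 9 pathway lists outside the family. Over these lists 99 genes were higher in place of 71 and 9 lower in place of 20, and 23 of the 26 prostaglandin genes were higher in place of 15. Aldh1l2 (log2 fold change 0.53) lost its call without P5 replicate 1, 4 or 5 or P12 replicate 4, with an edgeR adjusted p of up to 0.08. Aldh6a1 (-0.27) lost it without any 1 of the P5 replicates or P12 replicate 1 or 2 (up to 0.11), and Hsd17b10 (-0.21) without P5 replicate 1, 3 or 4 or P12 replicate 2, 3 or 4 (up to 0.13). Over all alternatives the log2 fold change lay between 0.39 and 0.90 for Aldh1l2. It lay between -0.36 and 0.10 for Aldh6a1 and between -0.28 and 0.17 for Hsd17b10.

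Of all genes called higher, 44.3% were lowest among the P12 libraries in replicate 4. In the lists this was so for 8 of 10 retinoid genes called higher, 7 of 9 in the NRF2 list, 6 of 9 in the NADPH list, 9 of 15 prostaglandin genes, 3 of 6 steroid receptors, 1 of 2 other aldo-keto reductases, 3 of 8 progesterone genes, 1 of 3 polyol genes, 2 of 9 dehydrogenases and 0 of 2 ascorbate genes.

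**Figure D5:**
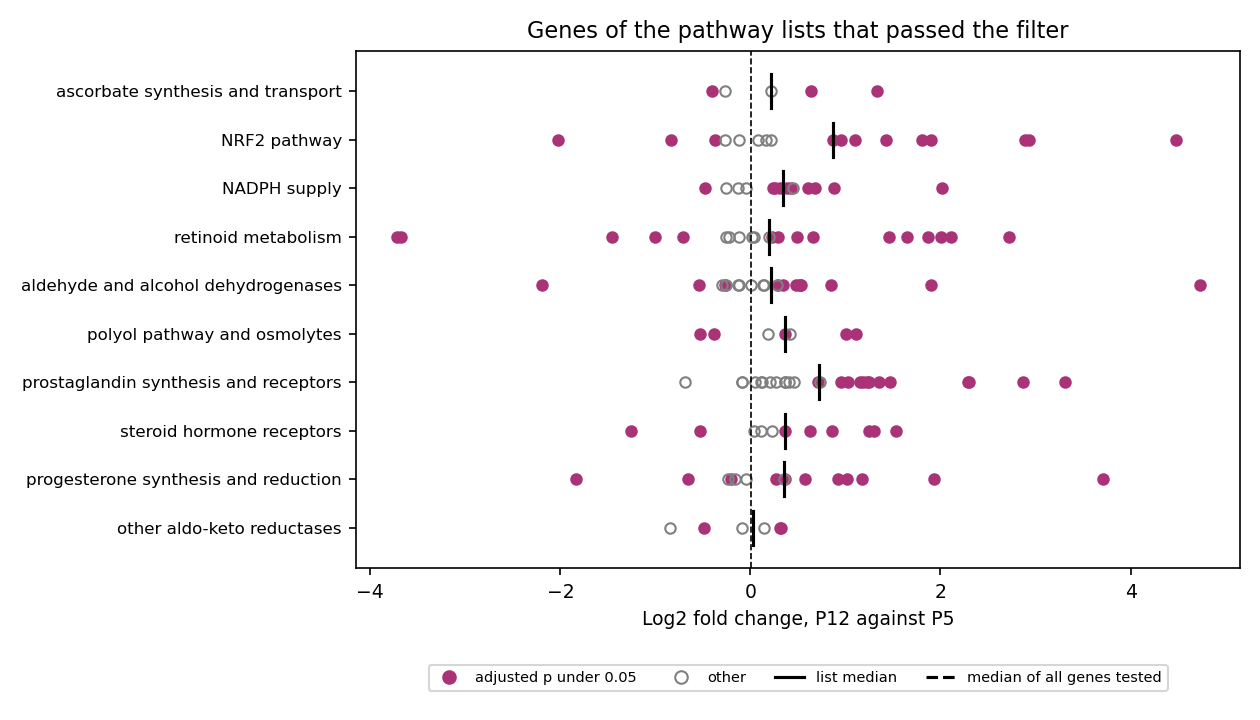
Log2 fold change at P12 against P5 of each tested gene in 10 lists, with filled points for an edgeR adjusted p under 0.05, a bar at the list median and a dashed line at 0.01, the median of all genes tested. The prostaglandin list has its median at 0.72 and the NRF2 list at 0.87, the 2 largest of the 10, and the other aldo-keto reductases have theirs at 0.03. Some genes called higher in the progesterone, steroid receptor, prostaglandin, dehydrogenase, retinoid and NRF2 lists needed P12 libraries to pass the filter on low counts. Some called lower in the progesterone, steroid receptor and retinoid lists needed P5 libraries.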

How the data were processed

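Enamel organs of first molars, in 4 pools of 5 pups at each age, were sequenced for RNA. The labels name TRIzol, a Zymo kit and poly-A capture, and the submitters' processing notes name CASAVA and mm39. The authors deposited unnormalized read counts per gene with coordinates, and 53548 of the 54532 genes had the same coordinates in GENCODE M21 for GRCm38, which is used here. The aligner, the counting program and its use of strand are not given in the sources used here. Columns were assigned by the library titles. Within each age, libraries were checked for duplicates in 12 pairs, and none was found (chi-square over its degrees of freedom between 4.998 and 84.3).

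The ages were compared in R 4.3.3 by edgeR 4.0.16 (TMM, filterByExpr, glmQLFit with a prior count of 0.125, glmQLFTest, no covariate, Benjamini-Hochberg over 16440 genes, threshold 0.05). Normalized counts were scaled to the mean effective size, 19006280, and levels were divided by gene length. Each SE is the absolute log2 fold change divided by the square root of the F value from glmQLFTest. Counting intervals are exact 95% intervals and, like floors, cover counting error only. DESeq2 1.42.0, other scalings and filters, a prior count of 2, each library left out in turn and a block by replicate number over 6 libraries were tried as alternatives. Sequences come from RefSeq GRCm38.p6 promoters and GENCODE M21 transcripts, with nucleotide identity from global alignment in place of protein identity. The scripts were tested on simulated data.

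The members and lists were chosen with earlier results of these data known. Named genes were the 8 members, the other aldo-keto reductases, up to 3 called genes in each direction of each pathway list by absolute log2 fold change with a mean normalized count of at least 100 (the text gives examples), steroid genes close to the Akr1c18 reaction, the most abundant gene of each marker list and the 5 genes most correlated with Akr1c18. Tmprss11g, Slc6a14, Krt6b, Hsd3b1, Hsd3b2, Fcer1a, Smr3a, Col3a1 and Postn were named after their values were seen. Python 3.11.15, numpy 2.4.6, pandas 2.3.3, scipy 1.17.1 and matplotlib 3.10.9 were used.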

Additional observations from a re-analysis of the deposited data

Results flagged for a closer look

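In 5 of 104 groups of 4 libraries (the tested members, other aldo-keto reductases and named list genes at each age), the highest or lowest normalized count lay far from the other 3. Chance gives about 1 in 20 such groups, here 5.20. None of them belonged to a member. Aqp1 had 1942 in P5 replicate 1, against 1698 to 1729 in the other P5 libraries. Gsta4 had 38.1 in P5 replicate 5, against 83.0 to 91.7. Rara had 1553 in P5 replicate 5, against 1052 to 1120. Nqo1 had 223 in P12 replicate 4, against 278 to 289, and Nr3c1 had 1511 there, against 1704 to 1731. These are the same replicates, 5 at P5 and 4 at P12, that stood apart on marker sums, except for Aqp1.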

How the results depend on the processing

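Akr1c18 kept a log2 fold change between 9.45 and 10.24 over 18 alternatives, with 9.63 to 10.21 when single libraries were left out. The number of genes higher at P12 (4735) became 8885, and of those lower (4676) 2330, under total count scaling, which also gave 99 pathway list genes higher in place of 71 and 9 lower in place of 20, 5 members higher in place of 4, and 3 other aldo-keto reductases higher in place of 2 and 0 lower in place of 1. Leaving out 1 library gave 4309 to 4938 genes higher, 4364 to 5092 lower, 3 to 5 members higher in place of 4, and 1 to 2 other aldo-keto reductases higher and 0 to 1 lower. All of these are edgeR counts. On all 8 libraries 2 other aldo-keto reductases were lower at an unadjusted p under 0.05, and DESeq2 called 1. With no filter on low counts 1 other aldo-keto reductase was higher in place of 2 and 0 were lower. With at least 10 counts in every library 1 member was higher, since only Akr1b3 and Akr1a1 were then tested. In that fit 58 pathway list genes were higher in place of 71 and 16 lower in place of 20. The cause of the other changes was not tested.

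With the replicate number as a replicate block over 6 libraries, 2 members were called higher, 1 other aldo-keto reductase was higher and 0 were lower. The same 6 libraries without the block gave 3 members higher, and likewise 1 and 0. Genes called were 3867 higher and 3843 lower with the block, and 4076 and 4041 without. Deviations of libraries with the same number had correlations of 0.04, 0.01 and -0.04, so that they shared only a number.

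An alternative chosen after seeing the data left out P5 library 5 and P12 library 4 together, which gave 4921 genes higher, 4855 lower, 1 other aldo-keto reductase higher and 0 lower. DESeq2 on the filtered genes called 4724 higher and 4673 lower, with 4 members higher. It had first been run on all genes with a count, and that run, kept as an alternative added after seeing the data, called 5005 higher, 4980 lower and 5 members higher. Among the named genes outside the members, these signs reversed, each without a call. Under total count scaling Hsd17b10 was at 0.17, Aldh6a1 at 0.10, Blvrb at 0.0028, Kcnab2 at 0.29, Srd5a1 at 0.20 and Star at 0.14, all below the median of 0.38 over all genes in that fit, and in the main fit they were also below its median (0.01). With single libraries left out Kcnab2 lay between -0.25 and 0.069 (0.069 without P5 replicate 3, 0.046 without P12 replicate 3) and Pgr between -0.043 and 0.29 (-0.043 without P5 replicate 4). Of 50 named genes outside the members, 32 kept direction and call under all alternatives that gave a value. Few P5 counts limit what can be said of Akr1c12, Akr1c13 and Akr1c19.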
